A study of Mus musculus with 16 samples.

Results

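The flavin-containing monooxygenases examined here were the mouse genes Fmo1, Fmo2, Fmo4 and Fmo5. They were taken by symbol from the deposited gene tables, which listed 78317 genes. All 4 were found, and all 4 were among the 14781 genes that passed the filter on low counts. RNA had been measured in 16 whole-liver libraries of wild-type C57BL/6J mice, an inbred laboratory strain, in 4 groups of 4. The groups were females on the normal diet (4.5% of calories from fat), females on the high fat diet (60%), males on the normal diet and males on the high fat diet. All mice had arrived at an age of 6 weeks and were fed the diets for 10 weeks. The diets came from different makers and can differ in more than fat content. The series asked how a diet rich in fat changes liver RNA in each sex.

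Flavin-containing monooxygenases sit in the membrane of the endoplasmic reticulum. They carry FAD, take electrons from NADPH and add an oxygen atom to nitrogen or sulfur atoms of drugs, dietary amines and thiols. Fmo1 acts on many such substrates and can also make taurine from hypotaurine. Fmo2 is best known as the form of the lung in many mammals. Fmo4 is the least studied of these enzymes. Fmo5 differs from the others in its chemistry, since it inserts oxygen next to a carbonyl group, and it is abundant in liver. In mice, hepatic levels of several members are known to depend on sex.

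In the RefSeq table for GRCm38.p6, Fmo4 (ENSMUSG00000026692.13), Fmo1 (ENSMUSG00000040181.15) and Fmo2 (ENSMUSG00000040170.14) followed one another as neighbouring protein-coding genes on chromosome 1. Fmo5 (ENSMUSG00000028088.15) lay on chromosome 3. The deposited values were made on GRCm39, so no gene coordinates from the older build are given. In the GENCODE M21 annotation, also of the older build, no exon of the 4 genes overlapped an exon of another gene on either strand.

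How far reads of one member could be taken for another was judged from transcript sequence. The coding sequences were between 61.4% (Fmo1 and Fmo5) and 65.1% (Fmo2 and Fmo4) identical over aligned bases (GENCODE M21 transcripts). None of the 50-base words of a member's transcripts (0 in each) occurred in another member. Of the words of Fmo1, 7.02% occurred in transcripts of other genes outside the family. That share was 0.434% for Fmo5 and 0% for Fmo2 and Fmo4. The expected counts of Fmo1 alone were fractional in some libraries, so Fmo1 is the member whose level depended on how shared reads were divided.

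Windows of 300 bases around annotated start sites (250 before and 50 from the start) were available from RefSeq (GRCm38.p6) for 3 of the 4 genes. Those of Fmo5, the member that changed with diet, and of Fmo2, the member with the largest sex difference, are shown. Fmo5 has 1 listed start and Fmo2 has 2, and each window is given 5′ to 3′ along the strand of its gene. Capitals mark matches to any of the motifs listed after the sequences.
Fmo5, chr3:97628769-97629068, plus strand: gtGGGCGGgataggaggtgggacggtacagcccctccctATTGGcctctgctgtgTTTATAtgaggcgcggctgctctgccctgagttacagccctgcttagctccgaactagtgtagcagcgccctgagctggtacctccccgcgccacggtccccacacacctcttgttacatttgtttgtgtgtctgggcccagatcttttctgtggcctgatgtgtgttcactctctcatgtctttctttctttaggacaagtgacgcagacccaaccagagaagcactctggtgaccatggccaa
Fmo2, chr1:162898709-162899008, minus strand: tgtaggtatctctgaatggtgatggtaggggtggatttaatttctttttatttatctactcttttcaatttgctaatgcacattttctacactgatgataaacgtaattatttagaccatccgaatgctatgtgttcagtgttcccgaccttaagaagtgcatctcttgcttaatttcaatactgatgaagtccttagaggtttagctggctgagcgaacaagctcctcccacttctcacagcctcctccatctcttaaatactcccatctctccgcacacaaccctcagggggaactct
Fmo2, chr1:162898444-162898743, minus strand: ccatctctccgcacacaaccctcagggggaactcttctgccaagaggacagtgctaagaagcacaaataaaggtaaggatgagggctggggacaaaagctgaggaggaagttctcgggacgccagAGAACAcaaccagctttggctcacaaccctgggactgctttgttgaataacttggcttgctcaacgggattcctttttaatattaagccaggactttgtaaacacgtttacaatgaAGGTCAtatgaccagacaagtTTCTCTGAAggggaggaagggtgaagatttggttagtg
The motifs were searched on both strands, and the share of the 32851 RefSeq windows that held each is given with it. The GC box was searched as GGGCGG (35.7%). The CCAAT box was in 37.4% of windows. For the TATA box the letters were TATAAA (13.6%), for the E-box CACGTG (7.15%) and for the site of STAT factors TTCNNNGAA (8.3%). The others were TGACNNNGC (antioxidant response element core, 12.4%), GCGTG (dioxin response element core, 32.4%), AGAACA (partial glucocorticoid response element, 19%) and AGGTCA (core of nuclear receptor sites, 16.3%). The Fmo5 window held 1 GC box on its own strand, and 1 CCAAT box and 1 TATA box on the opposite strand. The upstream Fmo2 window held none of the motifs (0 matches), and the downstream one held the partial glucocorticoid response element, the nuclear receptor core and the palindromic STAT motif. No matches overlapped another motif. These are matches of letters only.

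Each library held between 22228115 and 41420589 expected counts, and totals differed between diets by less than could be detected (exact permutation test, two-sided; p = 0.143 for females, 0.343 for males). The sex recorded in the labels matched Xist and 4 Y-linked genes in 16 of 16 libraries. The 6 hepatocyte markers had counts in every library, and their summed level was between 58021.6 and 118470 CPM (counts relative to the library size after TMM scaling). Albumin made up most of that sum in every library. Values given below per hepatocyte marker count are thus largely values relative to albumin. Male high fat diet replicates 2 and 3 were far more alike than any other pair within a group, with a chi-square statistic per gene of 4.00 against at least 20.7 for every other pair. Sampling noise alone would give about 1, and the 2 libraries were kept as separate replicates, as labelled. Male diet values and the high fat diet sex contrasts were also fitted without both. The labels do not say whether replicates came from separate animals, so "females" and "males" below stand for libraries, and p-values measure the spread between these libraries, which may be technical.

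Between genes, levels were compared as TPM, which divides by transcript length. Fmo5 was the most abundant, with a mean of 334.6 TPM over 16 libraries, which placed it at rank 337 of the 14781 tested genes. Fmo1 followed with 187.3 TPM (rank 580), Fmo2 with 18.9 TPM (rank 3293) and Fmo4 with 5.48 TPM (rank 6753). Fmo1 exceeded Fmo2 in 16 of 16 libraries and Fmo2 exceeded Fmo4 in 15, the exception being male high fat diet replicate 1. Fmo5 exceeded Fmo1 in 13 libraries. The other 3 were all from females on the high fat diet, where Fmo1 was at 250 TPM ± 44.8 and Fmo5 at 210.2 TPM ± 29.2 (SD, n = 4), a gap smaller than the spread of Fmo1. Counts behind these levels ran from 14146 to 42334 for Fmo5, 5101.2 to 17213.7 for Fmo1, 202 to 4216 for Fmo2 and 163 to 467 for Fmo4. The other family genes on the list, Fmo6 and Fmo9, had 0 counts in every library, which allows up to 3 counts, or 0.0724 to 0.135 CPM depending on the library (counting error only). The remaining family members were not analysed here.

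**Figure D1:**
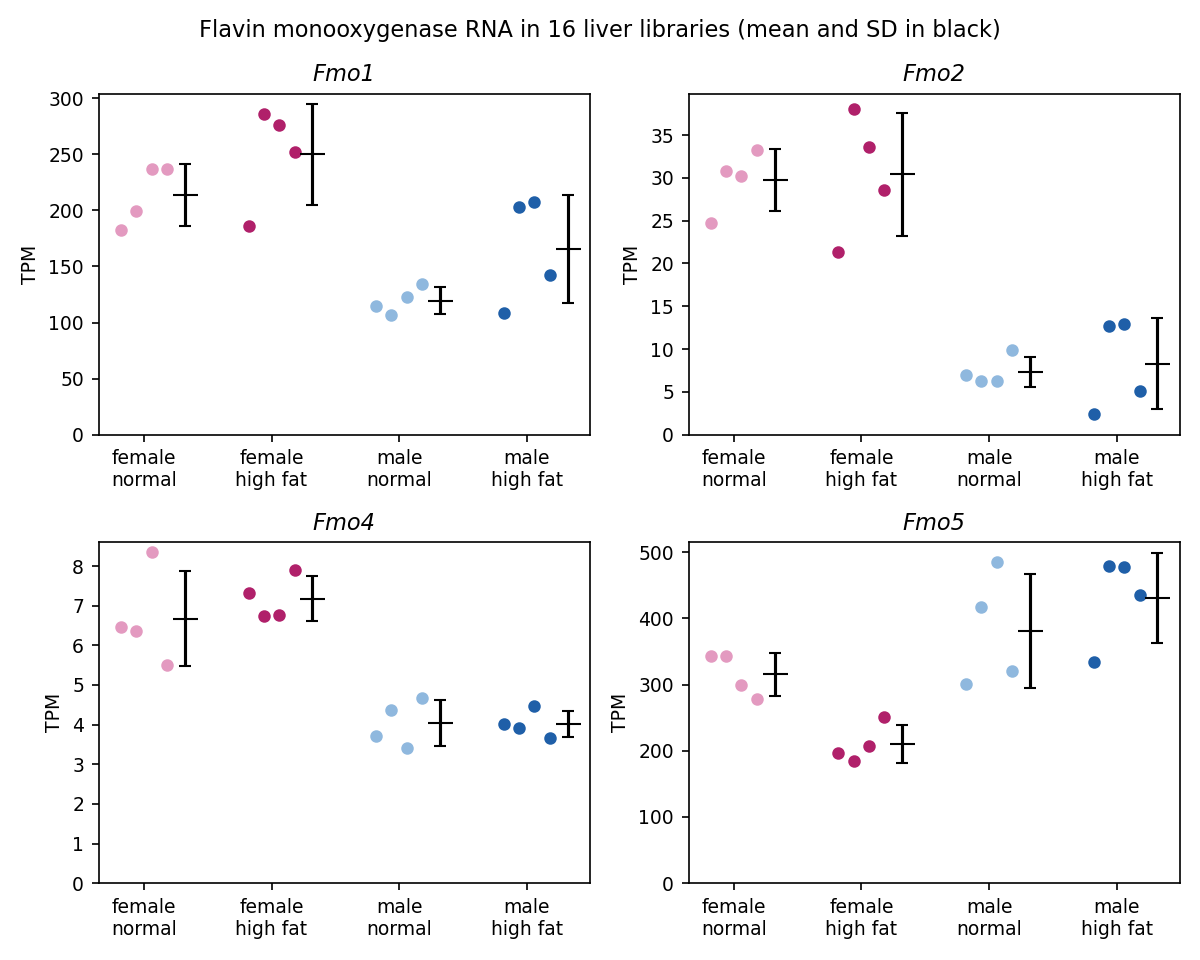
TPM (vertical axis, linear, from 0) of each gene in each of the 16 libraries, by group (points left to right are replicates 1 to 4, black marks are mean and SD, n = 4). Fmo5 sits between 184.4 and 251.7 TPM in females on the high fat diet, below all 12 other libraries, while Fmo1, Fmo2 and Fmo4 are higher in females than in males on the normal diet.

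In females on the high fat diet Fmo5 fell, and Fmo1, Fmo2 and Fmo4 did not pass the test. The 4 females on the normal diet had 1102, 1070, 820 and 832.4 CPM of Fmo5 (replicates 1 to 4). On the high fat diet they had 481.1, 467.9, 531.1 and 571.3 CPM. Every high fat diet female lay below every normal diet female, and the gap between the groups was wider than the range within the high fat diet group. The means were 956.2 ± 150.8 and 512.9 ± 47.6 CPM (SD, n = 4), a 1.86-fold lower level. On the log2 scale Fmo5 changed by -0.90 ± 0.16 (SE), and the adjusted p was 0.00197 in edgeR's quasi-likelihood test with Benjamini-Hochberg adjustment over all tested genes.

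Of all tested genes, 11.5% were called in this comparison, 5.76% as lower, and in 9.55% every high fat diet female lay below every normal diet female. The 1 call among 4 members is to be read against these shares. The other 3 members had log2 fold changes of -0.01 ± 0.18 (Fmo1, adjusted p = 0.981), -0.21 ± 0.40 (Fmo2, 0.772) and -0.13 ± 0.13 (Fmo4, 0.529). The fall of Fmo5 was called in every alternative run, with log2 fold changes of -0.59 to -0.96 and adjusted p of 3.06e-06 to 0.0178. Its smallest size came with limma on log2(TPM + 1), a scale on which the median log2 fold change of all tested genes was 0.15 rather than 0.

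Markers of other cell types moved with the same groups. The summed level of 6 hepatocyte markers was 105335 to 118470 CPM in females on the normal diet and 80318 to 98000.6 CPM on the high fat diet. That of 6 Kupffer cell and macrophage markers was 229.9 to 336.2 CPM and 384.9 to 536.1 CPM. All 6 markers of each list were detected in every library and none (0) was at 0. Of the hepatocyte markers edgeR called 1 for the diet in females, Tat, as lower. Of the Kupffer cell and macrophage markers it called 2, Cd5l and Cd68, as higher. Of the 8 stellate cell and fibroblast markers it called 3, Col1a1, Des and Pdgfrb, as higher. Their sums overlapped, at 336.5 to 355.7 CPM on the normal and 329.8 to 366.7 CPM on the high fat diet. In the other cell type lists none (0) was called. Per 1000 counts of the hepatocyte markers, Fmo5 had 8.69 ± 1.54 counts on the normal diet and 5.79 ± 0.984 on the high fat diet (SD, n = 4). The ranges, 7.03 to 10.3 and 4.91 to 7.11, just overlapped. The part of cell composition in the fall of Fmo5 was not tested, and in bulk tissue fewer cells of a type and less RNA per cell cannot be told apart.

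In males none of the 4 genes (0) was called for the diet by edgeR's quasi-likelihood test, where 11.4% of all tested genes were. Fmo1 alone had an unadjusted p under 0.05 (0.0443), and the DESeq2 Wald test likewise called 0. Fmo5, the gene that fell in females, had 1068, 1208, 1385 and 943.3 CPM in normal diet males. High fat diet males had 834.7, 1325, 1335 and 1103 CPM. The groups overlapped almost fully, with means of 1151 ± 189.8 and 1150 ± 235.6 CPM (SD, n = 4) and a log2 fold change of 0.00 ± 0.16 (adjusted p = 0.996). Whether the diet acted differently on Fmo5 in the 2 sexes was tested by the interaction, which was -0.90 ± 0.23 (females minus males). Its adjusted p was 0.0837, which missed the threshold of 0.05, in a comparison in which only 0.677% of genes were called.

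That call depended on the analysis. It was made by the DESeq2 Wald test (adjusted p = 0.0112), without the filter on low counts (0.0302) and without male high fat diet replicate 1 (0.0232), whose Fmo5 was the lowest of its group. It was not made in the other alternatives, where the interaction was between -0.998 and -0.65 with adjusted p of up to 0.234, reached with male high fat diet replicates 2 and 3 both left out. A difference in the response of Fmo5 between the sexes was thus of the same sign in every fit and was called in 3 of 25 alternatives. The interactions of Fmo1, Fmo2 and Fmo4 were -0.41 ± 0.26, -0.27 ± 0.57 and -0.04 ± 0.18, with adjusted p of 0.544, 0.892 and 0.948.

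Fmo1 in males was the closest to a diet effect after Fmo5 in females, and its high fat diet group was uneven. Normal diet males had 229.1, 191.6, 220.4 and 251.9 CPM of Fmo1. High fat diet males had 192.8, 361.5, 375.1 and 245.8 CPM. Replicates 2 and 3 lay above every normal diet male, and replicates 1 and 4 lay within the normal diet range. The log2 fold change was 0.40 ± 0.18 (adjusted p = 0.169). It was 0.55 ± 0.16 without replicate 1 (adjusted p = 0.0356) and -0.03 ± 0.17 with replicates 2 and 3 both left out (0.947). Relative to the hepatocyte markers, whose sum was mostly albumin, the male groups were separate. Fmo1 had 2.43 ± 0.372 counts per 1000 marker counts on the normal diet (1.99 to 2.90) and 4.18 ± 0.63 on the high fat diet (SD, n = 4; 3.32 to 4.70), so that all 4 high fat diet males lay above all normal diet males. On this scale Fmo5 had 10.8 to 15.2 counts on the normal diet and 14.4 to 18.3 on the high fat diet. The markers themselves summed to 86943.3 to 96404.6 CPM in normal diet males and 58021.6 to 79870.3 CPM in high fat diet males, without overlap, and their part in these values was not tested. Albumin was 6.47% of counts in normal diet and 4.87% in high fat diet males. The exact two-sided permutation p was 0.0286, or 0.172 adjusted over 6 library tests. Of the hepatocyte markers edgeR called 2, Alb and Tat, both lower on the high fat diet.

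Fmo2 showed the same division more widely. Its 4 high fat diet males had 7.51, 39.2, 40.4 and 15.1 CPM, against 25.4, 20.2, 19.9 and 32.6 CPM in normal diet males. Here replicates 2 and 3 lay above, and replicates 1 and 4 below, all 4 normal diet males, so the group means of 25.5 ± 16.8 and 24.5 ± 5.94 CPM (SD, n = 4) were close while the spreads were not. The log2 fold change was 0.06 ± 0.41 (adjusted p = 0.946). With replicates 2 and 3 left out it was -1.13 ± 0.29 (adjusted p = 0.0289), a fit that leaves only the low libraries of that group. Fmo4 in males was at 8.67 ± 1.28 CPM on the normal and 8.15 ± 0.834 CPM on the high fat diet, a log2 fold change of -0.09 ± 0.13 (adjusted p = 0.693). Without replicates 2 and 3, the male diet values of Fmo4 and Fmo5 were -0.18 ± 0.16 (0.556) and -0.25 ± 0.18 (0.43). In the male high fat diet group the 8 stellate cell and fibroblast markers summed to 291.8 to 421 CPM, above the normal diet males at 229 to 277.5 CPM. There the summed level of 5 pancreatic acinar markers was 12.3 to 32.6 CPM, against 5.02 to 14.5 in normal diet males, and that of 4 adipocyte markers 0.966 to 10.9 against 0.685 to 1.84. For the diet in males edgeR called none (0) of the 8 stellate markers. Of these, 6 had an unadjusted p under 0.05, and DESeq2 called 2 as higher. Cfd (adipocytes) and Cd68 (macrophages) were called higher by edgeR and Krt19 (cholangiocytes) lower. The part of these markers in the spread of Fmo1 and Fmo2 was not tested.

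**Figure D2:**
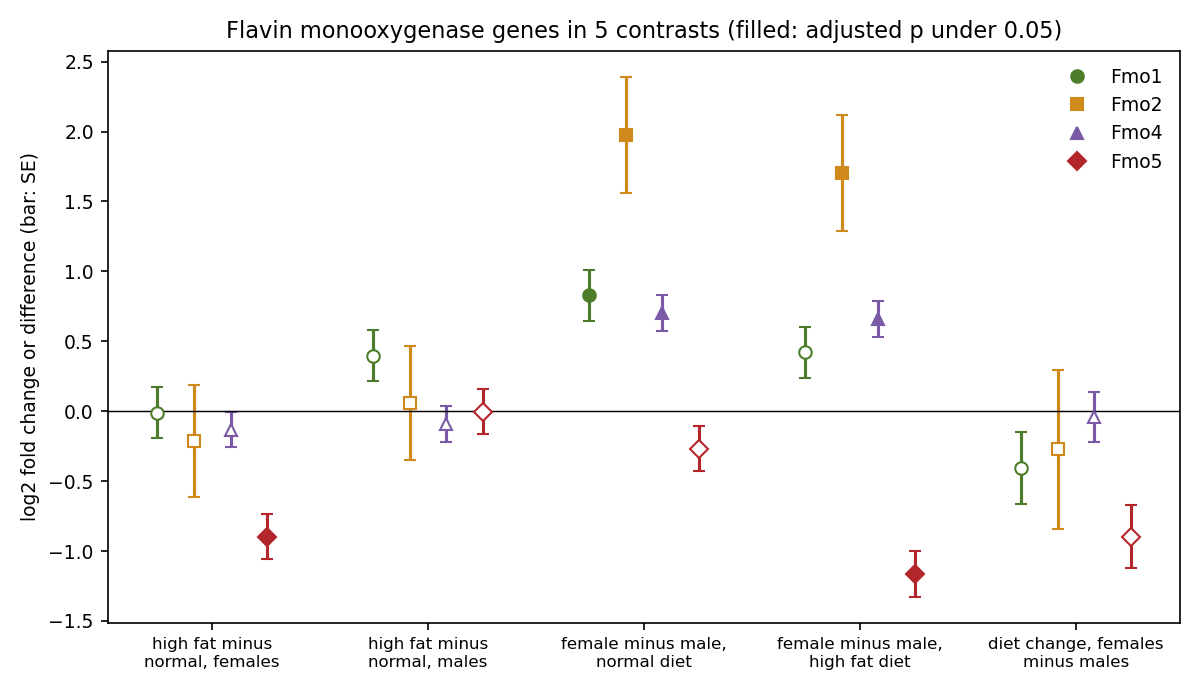
Log2 fold change or difference (vertical axis) with its SE for each gene in the 5 contrasts of the edgeR fit to 16 libraries, with filled symbols for adjusted p under 0.05. Fmo5 is the only filled symbol among the diet contrasts (-0.90 in females), and Fmo2 stands highest in both sex contrasts (1.98 and 1.70).

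The sexes were compared on each diet. On the normal diet, Fmo1, Fmo2 and Fmo4 were called higher in females, and Fmo5 was not called. Of all tested genes, 15.7% were called in this contrast, 7.03% as higher in females, and in 9.86% every female lay above every male. For Fmo1, Fmo2 and Fmo4 every female lay above every male.

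Fmo2 had the largest difference. Normal diet females had 85.8, 104.5, 89.3 and 106.8 CPM. Normal diet males, with the values given above, reached at most 32.6 CPM. Females were 3.93-fold higher, a log2 difference of 1.98 ± 0.42 (SE) with an adjusted p of 0.0067. Leaving out 1 library at a time, the difference stayed between 1.89 and 2.15.

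Fmo1 was at 396.5 ± 33.2 CPM in females and 223.2 ± 24.9 CPM in males (SD, n = 4). The 4 females had 355.5, 391.5, 402.9 and 436 CPM. The female level was 1.78-fold the male one, a log2 difference of 0.83 ± 0.18 (adjusted p = 0.00576). Fmo4, the least abundant member, was at 14.2 ± 1.94 CPM in females (11.6 to 16.3) and 8.67 ± 1.28 CPM in males (7.04 to 10.1). It was 1.63-fold higher in females, a log2 difference of 0.70 ± 0.13 with the smallest adjusted p of the 3, 0.00139. All 3 calls on the normal diet were made in every alternative run. The hepatocyte markers summed to 86943.3 to 96404.6 CPM in these males, below the females, a sum that was mostly albumin. Albumin was 8.40% to 9.17% of counts in these females and 6.22% to 6.94% in these males. The median log2 difference of the 6 hepatocyte markers was -0.09, and edgeR called 1 of them, Serpina1c, as lower in females. The sums of some other marker lists were also higher in these females without overlap. The 8 stellate cell and fibroblast markers summed to 336.5 to 355.7 CPM in females and 229 to 277.5 CPM in males, the 6 sinusoidal endothelial markers to 167.2 to 196.9 and 145.3 to 155.2 CPM, and the 6 T and B cell markers to 2.23 to 3.45 and 0.704 to 1.77 CPM. Few of their members were called by edgeR, all higher in females: Dcn and Lrat of the stellate list, Clec4g of the endothelial and Cd2 of the T and B cell list. The sums of Kupffer cell and macrophage, cholangiocyte, adipocyte, pancreatic acinar and red blood cell markers overlapped between these sexes. Of those lists Sox9 (cholangiocytes) and Alas2 (red blood cells) were called, both lower in females. The part of cell composition in the 3 sex differences was not tested. Per 1000 counts of the hepatocyte markers, Fmo1 had 3.59 ± 0.216 counts in females and 2.43 ± 0.372 in males (SD, n = 4), Fmo2 0.873 ± 0.0621 and 0.267 ± 0.0761, and Fmo4 0.129 ± 0.0236 and 0.0941 ± 0.0164. The female means were thus higher on this scale too, with overlap for Fmo4 (0.0979 to 0.155 against 0.0771 to 0.116). Fmo5 went in the other direction without passing the test, at -0.27 ± 0.16 (adjusted p = 0.274).

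On the high fat diet Fmo2 and Fmo4 were again called higher in females and Fmo5 was called lower, against 20.4% of all tested genes called (8.84% higher, 11.6% lower). Fmo5 in females was 2.24-fold below males, a log2 difference of -1.16 ± 0.16 (adjusted p = 0.000103), and all 4 females lay below all 4 males. Of all tested genes, 12.4% were lower and 10.3% higher in females without overlap on this diet. The Fmo5 difference was called in every alternative, at -0.92 to -1.26. This contrast uses the same high fat diet females as the diet contrast. The sex contrasts on the 2 diets share no libraries, and the change of the Fmo5 sex difference with diet is the same interaction as above, which was not called. On the high fat diet the hepatocyte markers summed to 58021.6 to 79870.3 CPM in males, below the females at 80318 to 98000.6 CPM. Of these markers edgeR called Alb as higher and Serpina1c as lower in females. Fmo5 had 14.4 to 18.3 counts per 1000 hepatocyte marker counts in high fat diet males, against 4.91 to 7.11 in females. The 6 Kupffer cell and macrophage markers separated the sexes on this diet, at 384.9 to 536.1 CPM in females and 183.7 to 376.4 CPM in males. Of the 6, 4 were called higher in females. T and B cell sums were higher in females without overlap (3.37 to 6.44 against 0.743 to 2.68 CPM, Cd2 and Cd3d called). Red blood cell sums were lower without overlap (157.1 to 258.3 against 264.4 to 309.8 CPM, Alas2 called). So were pancreatic acinar sums (7.7 to 11 against 12.3 to 32.6 CPM). The remaining sums overlapped. Of those lists Des, Clec4g and 2 cholangiocyte markers were called higher, and Cfd and 1 cholangiocyte marker lower. The part of these markers in the Fmo5 difference was not tested.

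High fat diet females had 59.8, 103.7, 97 and 72.9 CPM of Fmo2, all above the highest male at 40.4 CPM. The level was 3.26-fold higher in females, a log2 difference of 1.70 ± 0.41 (adjusted p = 0.0118). It was not called when only these groups were fitted (1.73 ± 0.52, adjusted p = 0.0668), and it was 2.89 ± 0.32 (2.48e-05) with male replicates 2 and 3 left out. Fmo4 was 12.9 ± 0.696 CPM in females and 8.15 ± 0.834 CPM in males (SD, n = 4), 1.58-fold higher, with a log2 difference of 0.66 ± 0.13 (adjusted p = 0.00186). Its ranges were 12 to 13.6 and 7.22 to 9.24 CPM. Per 1000 hepatocyte marker counts, Fmo4 had 0.145 ± 0.0167 counts in females and 0.119 ± 0.0158 in males (SD, n = 4), a smaller gap with overlapping ranges (0.133 to 0.170 against 0.102 to 0.140). Fmo2 had 0.610 to 1.15 and 0.129 to 0.506 on that scale, without overlap.

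Fmo1 was not called on this diet. High fat diet females had 294.8, 444.7, 455.6 and 380 CPM, and males overlapped them through replicates 2 and 3. Per 1000 hepatocyte marker counts, Fmo1 had 4.44 ± 0.969 counts in females and 4.18 ± 0.63 in males (SD, n = 4), a gap smaller than the spread. The log2 difference was 0.42 ± 0.18 (adjusted p = 0.108). It was called in 6 of 18 alternatives, among them those on TPM (0.62 ± 0.19, adjusted p = 0.022, on log2(TPM + 1)), that with male replicates 2 and 3 averaged (0.57 ± 0.19, 0.0452), that with both left out (0.84 ± 0.18, 0.00349) and that without replicate 3 alone (0.58 ± 0.18, 0.0391).

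The sum of the 4 genes varied less between groups than its parts. It was 566.1 ± 12.7 TPM in normal diet females, 497.8 ± 58 in high fat diet females, 512.2 ± 83.6 in normal diet males and 609.2 ± 120 in high fat diet males (SD, n = 4), and the groups overlapped in every pairing but 1. In high fat diet females the sum was at most 540.3 TPM, below the lowest normal diet female at 554.5 TPM. The make-up differed more. Fmo5 supplied 73.9% ± 5.19 of the summed TPM in normal diet males and 71.3% ± 3.48 in high fat diet males. In females it supplied 55.7% ± 5.5 on the normal diet and 42.5% ± 5.74 on the high fat diet. Fmo1 supplied 37.8% ± 4.95 and 50% ± 4.89 in the same groups, so that on the high fat diet its mean share was above that of Fmo5, though in 3 of the 4 libraries only. The share of Fmo1 in males was 23.8% ± 4.55 on the normal and 26.8% ± 2.92 on the high fat diet. Fmo2 supplied 5.25% ± 0.636 and 6.07% ± 1.05 in females and 1.48% ± 0.499 and 1.27% ± 0.662 in males, and Fmo4 never exceeded 1.78% in any library. These shares are given as a description without a test.

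**Figure D3:**
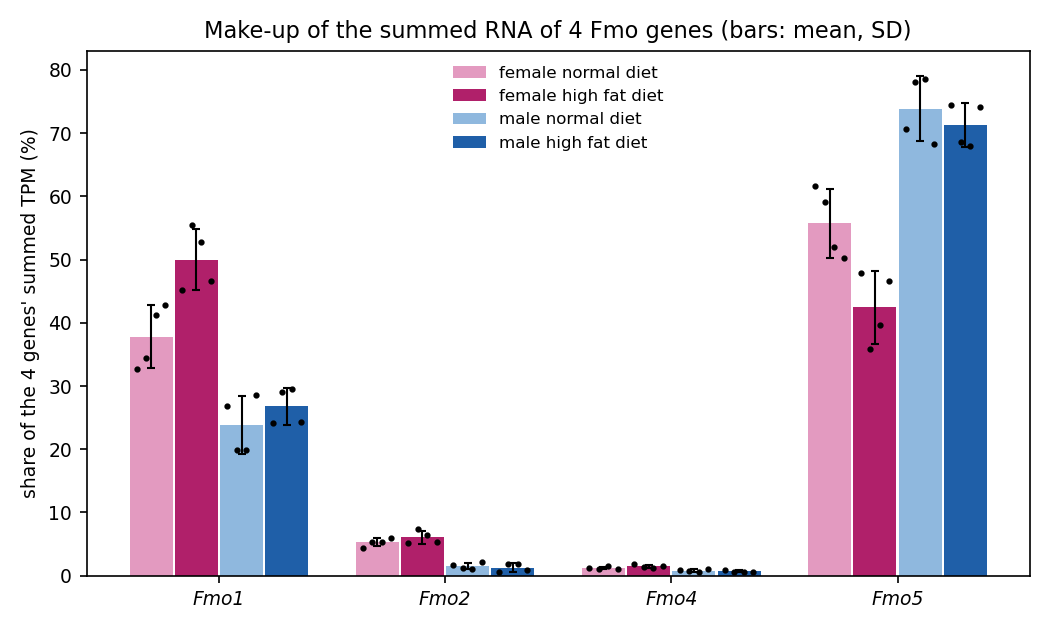
Share of each gene in the summed TPM of the 4 genes (vertical axis, percent) by group, with bars for means, lines for SD (n = 4) and points for libraries. Fmo5 makes up 71.3% to 73.9% in the male groups and 42.5% in high fat diet females, where Fmo1 makes up 50%.

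Within groups, Fmo1 and Fmo2 varied together from library to library. After subtraction of group means from log2 CPM, their Pearson r over 16 libraries was 0.94 and Spearman's rho was 0.93. The permutation p, from 100000 shuffles within groups, was 0.00012 for r and 0.00059 for rho, or 0.00072 and 0.00354 when adjusted over the 6 pairs of members. These p-values count the closely alike male high fat diet replicates 2 and 3 as separate libraries. They were not computed with these replicates merged. Without the 2 libraries farthest in Fmo1 (male and female high fat diet replicate 1) r was 0.93. Over the 12 libraries outside the male high fat diet group it was 0.88, given without a p. The other 5 pairs had r between -0.10 and 0.45, all with an adjusted p of at least 0.654. For Fmo1 with Fmo5, r was 0.36 over all 16 libraries and -0.33 without the male high fat diet group, so these genes had no relation that held across groups.

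**Figure D4:**
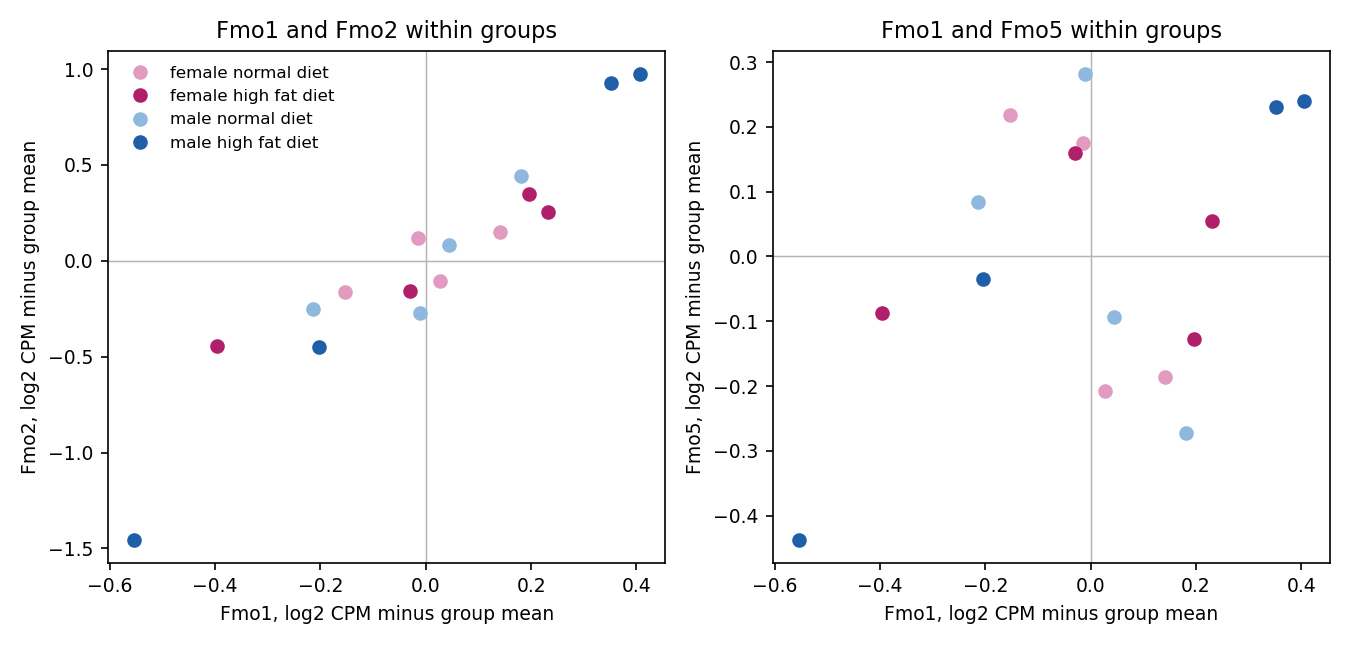
Log2 CPM minus the group mean for Fmo1 (horizontal) against Fmo2 (left panel) and Fmo5 (right panel), 1 point per library, coloured by group. Fmo1 and Fmo2 line up in all groups (r = 0.94), with male high fat diet replicates 2 and 3 at the top and replicate 1 at the bottom, whereas Fmo1 and Fmo5 do not (r = 0.36).

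The genes whose log2 CPM followed each member most closely over the 16 libraries were listed by Pearson r among 10645 candidates, as a description that mixes sex, diet and variation between libraries. For Fmo1 they were Acss3 (0.98), Slc16a7 (0.98), Khdrbs3 (0.97), Cyp2c38 (0.96) and Dpys (0.95), and within groups these still had r of 0.87 to 0.96. Slc16a7 is a monocarboxylate transporter and Dpys an enzyme of pyrimidine breakdown. For Fmo2 they were Acot3 (0.97), Hpgd (0.97), Acot4 (0.96), Pctp (0.96) and Gstt3 (0.96), with r of 0.89 to 0.91 within groups. Acot3 and Acot4 cleave acyl-CoA in peroxisomes, and Hpgd breaks down prostaglandins.

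For Fmo4 they were Cyp3a41b (0.94), Slc16a5 (0.94), Cyp2a4 (0.94), Cyp3a41a (0.94) and Kiz (0.93). Within groups their r with Fmo4 dropped to between 0.55 and 0.69. Cyp3a41a and Cyp3a41b are near-identical copies, and Cyp2a4 has a close copy in Cyp2a5, so that reads cannot be divided between such genes with certainty. For Fmo5 the nearest was Aldh7a1 (0.92), an aldehyde dehydrogenase of betaine and lysine metabolism, which kept an r of 0.78 within groups. It was followed by mt-Co1 (0.90), Gm28661 (0.89), mt-Nd4 (0.88) and Arl6ip1 (0.88). The mitochondrial transcripts had r of 0.47 to 0.54 within groups. The share of mitochondrial transcripts was 5.07% of counts in high fat diet and 5.88% in normal diet females (exact permutation test, two-sided, p = 0.0857, adjusted over 6 library tests 0.214). On the high fat diet it was 4.59% to 5.50% in females and 6.13% to 8.42% in males, without overlap and given without a test. The part of this share in the Fmo5 results was not tested.

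Genes that supply the cofactors of these enzymes were examined next. The lists that follow are described by their counts and median log2 fold changes. Over all tested genes the medians were 0.00 for diet in females, 0.01 for diet in males, 0.00 for sex on the normal diet and -0.01 for sex on the high fat diet. Of 10 listed genes of FAD and NADPH supply, 9 were tested. In females 3 were lower on the high fat diet and 0 higher, and in males the counts were the same, 3 and 0, with the same 3 genes. Slc25a32, a carrier of folate and FAD into mitochondria, fell from 67.5 ± 6.47 to 30.6 ± 4.15 CPM in females (SD, n = 4; log2 fold change -1.14 ± 0.11, adjusted p = 1.2e-05) and from 66.9 ± 3.97 to 45.3 ± 4.45 CPM in males (-0.56 ± 0.11, 0.00307). Idh1, a cytosolic source of NADPH, fell by 0.50 ± 0.11 in females (adjusted p = 0.00851) and by 0.40 ± 0.11 in males (0.0257) on the log2 scale. Me1, the malic enzyme that makes NADPH, fell by 0.89 ± 0.26 (0.0377) and 0.86 ± 0.26 (0.044). The list's medians were -0.11 and 0.01 for diet in females and males, and 0.01 for sex on either diet. Between the sexes, Rfk, the kinase that makes FMN from riboflavin, was higher in females on the normal diet (85.2 ± 4.93 against 58.4 ± 2.37 CPM, adjusted p = 0.00149) and H6pd, which makes NADPH inside the endoplasmic reticulum, was lower (186.9 ± 34.6 against 250.1 ± 27.6 CPM, 0.045). With the high fat diet, 1 of the 9 genes was higher in females than in males (Rfk) and 2 were lower (Slc25a32 and H6pd).

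Among 10 other oxidoreductases of drug metabolism, all tested, Por stood beside Fmo5 in females as the 1 gene called lower. Por, the flavoprotein that passes electrons from NADPH to cytochromes P450, went from 761.5 ± 65 to 423.5 ± 74.8 CPM in females (SD, n = 4; log2 fold change -0.85 ± 0.13, adjusted p = 0.000619). Unlike Fmo5 it also fell in males, from 623.6 ± 33.4 to 386.7 ± 46.6 CPM (-0.69 ± 0.13, 0.00282). In males Xdh, xanthine dehydrogenase, rose by 0.47 ± 0.14 (0.0412). On the normal diet 3 of the 10 were higher in females and 2 lower. The aldehyde oxidases Aox3 (205.7 ± 31.3 against 778 ± 42.4 CPM, adjusted p = 6.67e-07) and Aox1 (40.1 ± 8.96 against 107.4 ± 7.56 CPM, 0.000472) were lower in females. Maob, a monoamine oxidase, and Nqo1, a quinone reductase, were among the higher ones, by 0.78 ± 0.21 (0.0189) and 1.04 ± 0.28 (0.0193). Of the 10 genes, 2 were higher and 2 lower in females on the high fat diet. The list's medians, in the order used above, were 0.02, -0.16, 0.34 and 0.14.

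Genes of taurine and cysteamine metabolism were included because Fmo1 can form taurine. Of 8 listed, 7 were tested, and none (0) was called for the diet in females by edgeR or DESeq2, or had an unadjusted p under 0.05. In males 2 were higher and 1 lower. The lower one was Csad, the decarboxylase that makes hypotaurine, at 299.4 ± 70.7 CPM on the normal and 36.4 ± 11.2 CPM on the high fat diet (SD, n = 4; log2 fold change -3.04 ± 0.39, adjusted p = 0.000302). Vnn1 and Vnn3, pantetheinases that release cysteamine, rose by 1.17 ± 0.27 (0.0109) and 0.60 ± 0.14 (0.0109). On the normal diet Vnn1 and Vnn3 were higher in females, as Fmo1 was, by 1.43 ± 0.27 (0.00241) and 1.20 ± 0.14 (2.55e-05), and Csad was lower, by -2.13 ± 0.37 (0.00216). On the high fat diet Vnn3 was the 1 gene of this list called, higher in females by 0.60 ± 0.14 (0.00718). The list's medians, in the order used above, were 0.02, 0.20, 0.04 and 0.16.

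Of 10 genes of choline and methylamine metabolism, all tested, 0 were called for the diet in females by edgeR or DESeq2 (2 had an unadjusted p under 0.05) and 2 rose in males. Bhmt, which passes a methyl group from betaine to homocysteine, rose from 1754 ± 240.7 to 4160 ± 1784 CPM (SD, n = 4; adjusted p = 0.00292), and the choline transporter gene Slc44a1 rose by 0.60 ± 0.10 (0.00078). On the normal diet 2 of the 10 were higher in females, Pemt (0.65 ± 0.13, adjusted p = 0.00216) and Bhmt (0.77 ± 0.24, 0.0351), and Chka was lower (-1.04 ± 0.30, 0.0289). On the high fat diet Aldh7a1, the gene most like Fmo5, was lower in females, at 332.3 ± 20.6 against 473 ± 78.1 CPM (adjusted p = 0.00432), and Pemt was higher (0.69 ± 0.13, 0.00126). The list's medians, in the order used above, were -0.10, 0.10, 0.22 and -0.21.

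Of 11 transcription factor genes of hepatocytes and of drug response, 3 rose and 3 fell with the diet in females. Nr1i2, which encodes the drug-sensing receptor PXR, fell from 99.5 ± 6.94 to 57.5 ± 6.18 CPM (SD, n = 4; adjusted p = 0.000109), and Hnf4a, a main hepatocyte factor, from 557.3 ± 10.1 to 368.7 ± 42.4 CPM (0.00331). Foxa2 rose by 0.78 ± 0.20 (0.0205) and Nfe2l2, the gene of NRF2, by 0.36 ± 0.10 (0.0224). In males 0 rose and 2 fell, Hnf4a by 0.47 ± 0.11 (0.0139) and Nr1i2 by 0.41 ± 0.10 (0.0143). Between the sexes, Nr1i2 was the 1 gene of this list called on the normal diet, higher in females (0.42 ± 0.10, 0.00908). In the high fat diet groups Nfe2l2 was higher (0.43 ± 0.10, 0.00527) and Hnf4a lower in females (-0.46 ± 0.11, 0.00942). The list's medians, in the order used above, were -0.08, 0.17, -0.01 and 0.00.

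Growth hormone and sex hormone signalling genes were listed because growth hormone patterns set much of the sex difference of mouse liver. Of 10 genes, 0 were called for the diet in females by edgeR (2 had an unadjusted p under 0.05, and DESeq2 called 1, Cish) and 1 in males, Stat5b, which rose from 30.8 ± 3.39 to 50.2 ± 7.8 CPM (SD, n = 4; adjusted p = 0.00243). On the normal diet 2 were higher in females. Cux2, a factor of female liver, had 17.9 ± 4.34 against 0.246 ± 0.188 CPM (adjusted p = 8.81e-09), and Esr1, the oestrogen receptor, had 70.2 ± 2.67 against 33.2 ± 6.56 CPM (3.72e-05). Both were higher on the high fat diet too, and Onecut1 was lower there (-2.08 ± 0.60, 0.0277). The list's medians, in the order used above, were -0.09, 0.11, 0.22 and -0.16.

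Zonation along the liver lobule was followed with 8 pericentral and 8 periportal genes. In females 1 pericentral gene, Lgr5, rose (1.29 ± 0.21, adjusted p = 0.000949) and 3 periportal genes fell, among them Cyp2f2 (from 776.9 ± 51.2 to 409.4 ± 15.1 CPM, SD, n = 4; 1.58e-05) and Pck1 (from 2846 ± 422.1 to 1124 ± 336.8 CPM, 0.000384). In males 4 pericentral genes rose, led by Glul (from 892.4 ± 200 to 1781 ± 221.1 CPM, 0.00272), and 2 periportal genes, Cyp2f2 and Pck1, fell by 0.73 ± 0.09 (0.000115) and 0.73 ± 0.20 (0.0219). For diet in females and in males the medians were -0.09 and 0.54 for the pericentral and -0.51 and -0.40 for the periportal list. Between the sexes Rhbg was the 1 pericentral gene higher in females on the normal diet (0.88 ± 0.19, 0.00476), and none (0) was called by edgeR or DESeq2 on the high fat diet, where 1 had an unadjusted p under 0.05. Of the periportal genes, Cyp2f2 was lower in females on both diets, by -0.69 ± 0.09 (0.000101) and -0.88 ± 0.10 (6.32e-06), and on the high fat diet Pck1 was lower (-0.74 ± 0.20, 0.0134) and Gls2 higher (0.65 ± 0.22, 0.0446). The part of these shifts in the levels of the Fmo genes was not tested. Over all 8 lists, the 1 interaction that edgeR called was that of Csad (3.06 ± 0.52, adjusted p = 0.0145). The DESeq2 Wald test called those of Csad, Cebpa and Nfe2l2 with a positive sign and those of Bhmt, Slc25a32 and Rhbg with a negative one.

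The counts for these lists that involve males on the high fat diet were repeated without replicates 2 and 3. For diet in males, the calls of Vnn1 (0.89 ± 0.32, adjusted p = 0.116), Vnn3 (0.45 ± 0.17, 0.119), Xdh (0.46 ± 0.18, 0.136), Hnf4a (-0.42 ± 0.14, 0.083) and Pck1 (-0.72 ± 0.26, 0.105) were lost. The log2 fold changes of Xdh, Hnf4a and Pck1 stayed close to those with all libraries (0.47, -0.47 and -0.73). Their SE rose with the smaller group. Gnmt (-0.85 ± 0.21, 0.0207), Aox1 (-1.01 ± 0.22, 0.00925) and Nqo1 (-0.98 ± 0.26, 0.0289) were then called lower. The male diet calls of Csad, Slc44a1, Slc25a32, Idh1, Me1, Por, Nr1i2, Stat5b, Glul, Lgr5, Axin2, Rhbg and Cyp2f2 were kept. That of Bhmt was kept at 0.58 ± 0.17 (0.0491), less than before. For sex on the high fat diet, the calls of Aldh7a1 (-0.30 ± 0.11, 0.0661), Aox1 (-0.38 ± 0.20, 0.214) and Esr1 (0.37 ± 0.15, 0.0933) were lost, and Cdo1, Gnmt, Flad1, Maob, Nqo2 and Cdh1 gained one.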

How the data were processed

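RNA from powdered whole liver was sequenced as poly(A) libraries (NEBNext Ultra, NovaSeq), per the labels' protocols. STAR, RSEM and GRCm39 are named in the submitters' processing notes. Versions, annotation and strand setting are not given in the sources used here. The authors deposited RSEM expected counts and TPM per gene. Of 78317 gene IDs, 51487 had a symbol in a supplied table.

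Expected counts were rounded, filtered with filterByExpr of edgeR 4.0.16 (R 4.3.3), scaled by TMM and tested by its quasi-likelihood test, with 1 mean per group over 16 libraries and 5 contrasts. Genes with a Benjamini-Hochberg adjusted p under 0.05 were called (two-sided). SE was the log2 fold change over the square root of F. Alternatives used DESeq2 1.42.0 and limma 3.58.1. The fit was tested on simulated data.

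All 4 members were named, with at most 4 called genes per list and contrast and the 5 genes most like each member (mean log2 CPM of at least 1, prior count 2). Members and lists were chosen with earlier results of these data known. Cish and the genes whose calls moved without male high fat diet replicates 2 and 3 were named after their values were seen. The same holds for the interactions called by DESeq2 alone and for the cell type markers named singly. A listed gene, a motif and a sequence are not reported here.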

Additional observations from a re-analysis of the deposited data

How the results depend on the processing

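Of the 5 counts of genes called, that for diet in females (1700: 848 higher, 852 lower) moved most with scaling. It was 2690 with library totals only (2318 higher, 372 lower), 2926 by limma on log2(TPM + 1) (2644, 282) and 2763 on log2(TPM + 0.1) (2487, 276), with median shifts of all genes of 0.19, 0.15 and 0.22. On library totals the split was also 1358 to 472 for diet in males (891 to 793 with TMM), 70 to 48 for the interaction (39 to 61) and 2318 to 1048 for sex on the high fat diet (1306 to 1716). The interaction count (100) was 341 by DESeq2's Wald test and 58 with the counts of the like male libraries 2 and 3 (high fat diet) averaged. Sex on the high fat diet (3022) gave 1958 with only the 2 groups compared. The cause was not tested. Leaving out 1 library gave 947 to 1647 for diet in females (lowest without female high fat replicate 4, and 1021, 1062 and 1074 without female normal diet replicates 1, 2 and 4), 1113 to 1912 for diet in males (lowest without male normal diet replicate 3) and 51 to 176 for the interaction (51 and 57 without female normal diet replicates 2 and 4, 62 and 58 without male high fat replicates 2 and 3, 176 without male high fat replicate 1). It gave 1325 to 2488 for sex on the normal diet (2322; 1523 and 1325 without female normal diet replicates 1 and 2, 1378 without male normal diet replicate 3) and 1974 to 3019 for sex on the high fat diet (lowest without male replicate 4). Among 380 alternative values of the 4 genes, 368 kept their status, called or not called, where an uncalled value could change sign. Another 10 became called and 1 lost its call. The last 1 was called with the sign opposite to an uncalled main value of 0.06 ± 0.41. This was Fmo2 in males, -1.13 with high fat diet replicates 2 and 3 both left out, an alternative chosen after seeing the data. Same-numbered libraries of different groups deviated together in only 4 of 24 pairs (r over 0.1), so the numbers were not taken to pair libraries. A replicate block gave 1864, 1980, 101, 2685 and 3445 genes for diet in females, diet in males, the interaction, sex on the normal and sex on the high fat diet, and changed no call of the 4 genes. Fmo4 rested on as few as 163 counts in a library, which limits its precision.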
